A study of Mus musculus with 12 samples.

Results

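The integrin and laminin adhesion genes are the genes for integrin alpha chains, integrin beta chains and the laminin alpha, beta and gamma chains. They were picked out by symbol alone (Itga, Itgb, Lama, Lamb or Lamc with the number or letter of a chain, and Itgbl1), a rule that uses no measured value, although earlier results of these data were known when the set was proposed. The array held probes for 36 of them, which were 16 alpha chain genes, 9 beta chain genes and 11 laminin genes, among 36945 genes or transcripts with a probe. RefSeq lists 38 mouse symbols of this form, and Itga10 and Itgae had no probe. A filter kept probes that all 3 arrays of 1 or more groups measured well above background, and 29 integrin and laminin genes (13 alpha, 6 beta, 10 laminin) were tested among 24183 genes or transcripts.

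RNA came from DKO172, a cell line grown from a mouse fallopian tumor, and was measured on 12 single-colour Agilent arrays. The cells carried a hygromycin-selectable plasmid for DICER1 with the substitution D1709N (3 arrays), DICER1 with G1809R (3 arrays), wild-type DICER1 (WT, 3 arrays) or GFP as the control (3 arrays). All 4 groups received 2 µg of plasmid, were selected for 84 h with hygromycin (300 µg/ml) and gave RNA at 108 h. As background that the labels do not give, the line is understood to descend from a mouse tumour model lacking Dicer1, a state the GFP cells would share. It is a single cell line, and the labels do not say whether the replicates were separate cultures, so p-values measure the spread between these arrays.

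Integrins are receptors made of 1 alpha and 1 beta chain that span the plasma membrane, bind matrix proteins outside the cell and connect to actin inside it. Laminins are trimers of an alpha, a beta and a gamma chain that form the sheet of the basement membrane on which epithelia, the oviduct's among them, rest. Integrins with the chains alpha3, alpha6 or alpha7 joined to beta1, or alpha6 joined to beta4, are the main laminin receptors, while alpha5 and the alphav integrins bind the RGD motif of fibronectin and vitronectin. DICER1 cuts miRNA precursors, and the residues of D1709N and G1809R lie in the RNase IIIb domain, whose loss is known to deplete miRNAs of the 5p arm.

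Several members are reported miRNA targets in human cells, and the mature mouse miRNAs are shown because their arm sets which of them hotspot mutants are known to make. Capitals mark the seed (bases 2 to 8), and the sequences are RefSeq's, build GRCm38.p6. ITGB3 is a reported target of let-7, ITGA5 of miR-31 and ITGB8 of miR-93, which all come from the 5p arm, whereas ITGA6 and LAMC1 are reported targets of miR-29, which comes from the 3p arm.
mmu-let-7a-5p: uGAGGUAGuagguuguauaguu
mmu-miR-31-5p: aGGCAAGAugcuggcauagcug
mmu-miR-93-5p: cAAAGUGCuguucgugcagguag
mmu-miR-29a-3p: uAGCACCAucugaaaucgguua
mmu-miR-29b-3p: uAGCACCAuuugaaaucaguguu
The seeds of miR-29a-3p and miR-29b-3p were the same 7 bases, and the other 3 miRNAs had a seed each. The miRNAs themselves were not measured on these arrays.

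A level below is the log2 processed intensity of a gene's brightest probe relative to the 75th percentile of its array, so that 0 is that percentile, and levels of different genes cannot be set against each other. A change is the difference of 2 group means of these levels, with its SE from limma. A gene was called where its limma p, adjusted by Benjamini and Hochberg over the 24183 genes, was under 0.05. The 75th percentile lay between 1036 and 1462 intensity units, and 49.4% to 82.7% of the probes were well above background, the highest share being that of WT replicate 1. That array also correlated less with the other WT arrays (0.977 to 0.98) than the other arrays did within their groups (0.981 to 0.993). Replicate 1 of each group lay on slide 1, and replicates 2 and 3 lay on slide 2. Arrays of the same number deviated together across groups, so a second limma fit with the replicate number as a block is given for the members wherever it changed a call. An SE after ± is always that of the fit without the block, also where a blocked p stands beside it. In bulk RNA, fewer cells of a type and less RNA per cell cannot be told apart.

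With wild-type DICER1, 1 integrin rose against GFP, Itga9, and both hotspot mutants left it lower than wild type did. In the fit without the block, 1 of the 29 genes was called for WT against GFP (3.45%), where 2.95% of all genes tested were called. None was called for D1709N against GFP (background 0.0496%) or for G1809R against GFP (background 0.0124%), and 1 and 3 of the 29 had an unadjusted limma p under 0.05 there (7.21% and 6.64% of all genes). For D1709N against WT the same single gene was called (background 1.66%), and likewise for G1809R against WT (background 1.64%). No integrin or laminin gene, and no other gene (0%), was called between D1709N and G1809R, where none of the 29 had an unadjusted p under 0.05 and the replicate block also gave 0. The share of members is close to the background in WT against GFP, so the description below is one of single genes. Arrays did not overlap between D1709N and G1809R for 1 of the 29 members (Itga7, higher with D1709N) and for 2.46% of all genes.

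With the replicate block, 8 of the 29 were called for WT against GFP, 4 higher and 4 lower (27.6%), against 17.8% of all genes (9.18% higher, 8.61% lower). The block gave 1 for D1709N against GFP (3.45%, all genes 4.25%, of which 2.49% lower) and 2 for G1809R against GFP (6.9%, all genes 3.74%, of which 1.98% lower), and all 3 were lower. It gave 6 for D1709N against WT (20.7%, all genes 15.5%), of which 2 were higher and 4 lower (all genes 7.12% and 8.42%). For G1809R against WT it gave 7 (24.1%, all genes 12.7%), of which 2 were higher and 5 lower (all genes 6.36% and 6.31%). The median change of the 29 genes stayed near that of all genes: -0.06 for D1709N against GFP (all genes 0.03), -0.03 for G1809R against GFP (all genes 0.05) and 0.03 for WT against GFP (all genes 0.04). Against WT it was -0.05 for D1709N (all genes -0.01) and -0.08 for G1809R (all genes 0.01). By class, the laminins had 5 of 10 genes called with the block in WT against GFP, the beta chains 2 of 6 and the alpha chains 1 of 13. Without WT replicate 1, the block called 6 members for WT against GFP, 4 for D1709N against WT and 3 for G1809R against WT. The fit without the block then called 0, 0 and 1 in that order. The share of all genes called in these blocked fits is not given here, so the counts stand without a background.

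**Figure D1:**
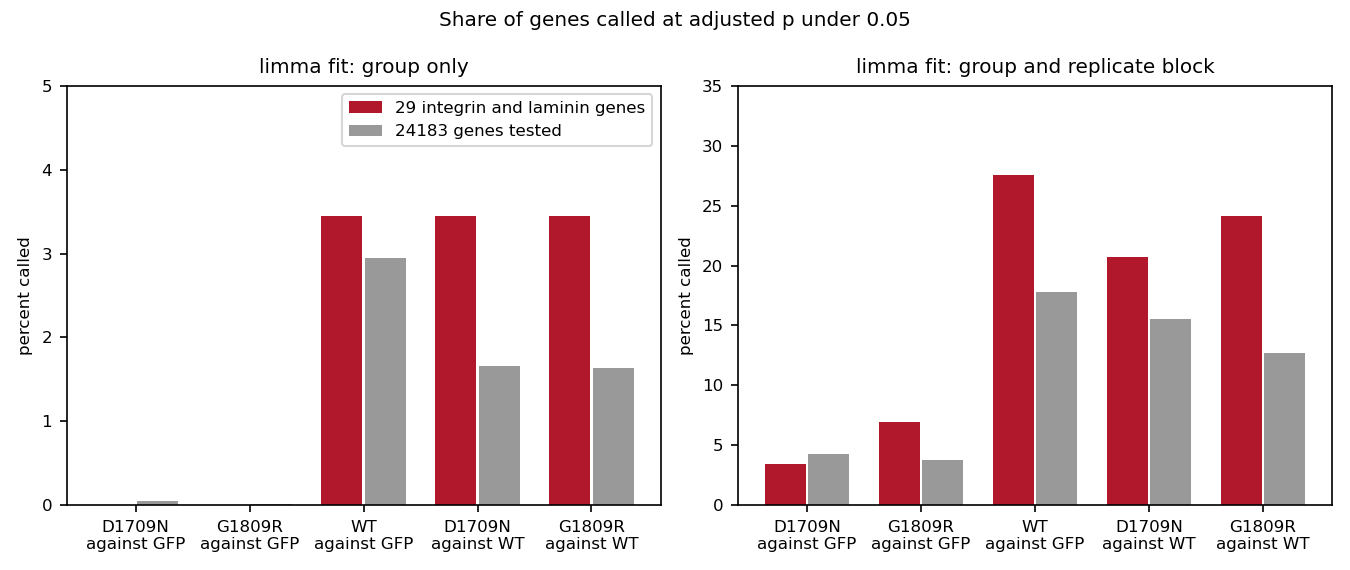
Percent of the 29 integrin and laminin genes (red) and of all 24183 genes tested (grey) called at an adjusted limma p under 0.05 in 5 comparisons, without the replicate block (left) and with it (right). With the block, 27.6% of the members and 17.8% of all genes were called for WT against GFP.

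**Figure D2:**
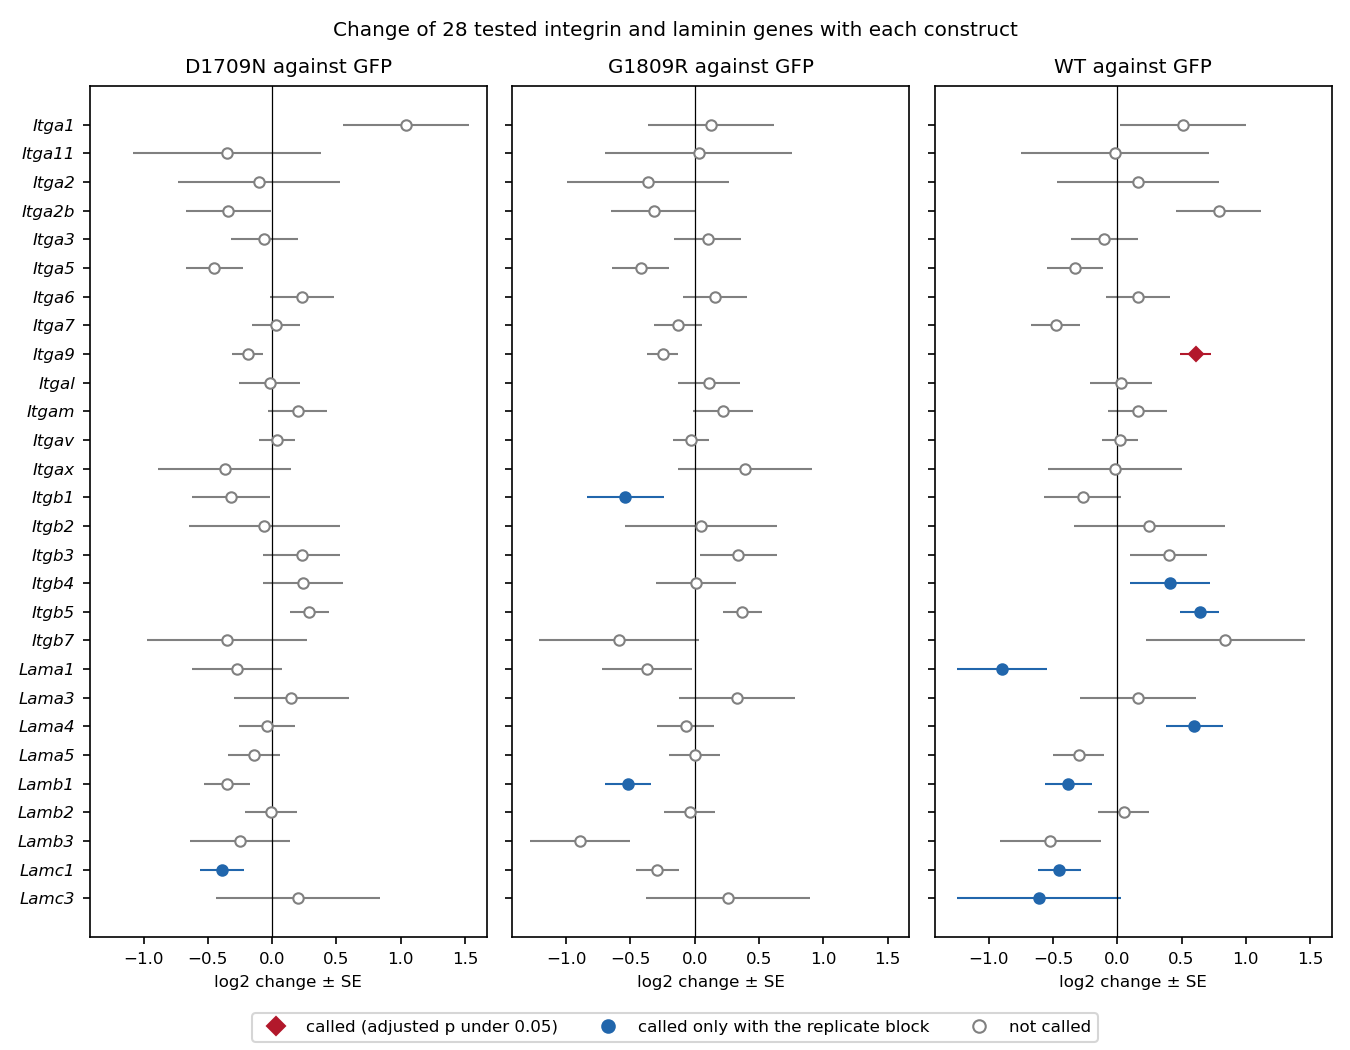
Log2 change ± SE of 28 of the 29 tested genes against GFP for D1709N, G1809R and WT, from the limma fit without the block (3 arrays a group). The red diamond is the gene called in that fit, Itga9 with WT, blue points were called only with the replicate block, and open points were not called.

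Itga9 encodes the alpha9 chain, which pairs with beta1 and binds tenascin-C, osteopontin and Vcam1. Its level was -1.64, -1.54 and -1.30 with D1709N, -1.65, -1.50 and -1.52 with G1809R, -0.57, -0.80 and -0.71 with WT, and -1.27, -1.25 and -1.39 with GFP. All 3 WT arrays lay above the 9 others, and the D1709N arrays overlapped those of both other groups. Against GFP, Itga9 rose with WT by 0.61 ± 0.12 (limma adjusted p = 0.029, 1.53-fold), and all 3 pairs of arrays went the same way (0.70, 0.45 and 0.68).

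Against WT, Itga9 fell by 0.80 with D1709N (SE 0.12, limma adjusted p = 0.0163) and by 0.86 with G1809R (SE 0.12, limma adjusted p = 0.0117). Against GFP its change was -0.19 with D1709N (limma adjusted p = 0.84) and -0.25 with G1809R (limma adjusted p = 0.8). Comparisons that share the WT arrays are not separate evidence, for Itga9 as for Lama1, Lama4 and Lamc3 below. The rise with WT was lost when any 1 WT or GFP array was left out (limma adjusted p up to 0.12), and the fall with D1709N was lost without D1709N replicate 1 or 2 or WT replicate 1 (up to 0.0807). For G1809R against WT the call held in all 12 fits without 1 array, and with the replicate block all 3 calls held in all 12 (highest adjusted p 0.0392, 0.0218 and 0.0167 for WT against GFP, D1709N against WT and G1809R against WT). On slide 2 alone, without a block, the rise with WT was 0.57 and no longer called (limma adjusted p = 0.159), and it was also not called with quantile normalization (0.60, limma adjusted p = 0.0653), with normexp and quantile normalization (0.50, 0.0637), in the authors' deposited value table (0.58, 0.0709), with no filter on dim probes (0.61, 0.0993) or when the other groups were left out of the fit (0.61, 0.147). The falls with D1709N and G1809R against WT were not called on slide 2 alone (limma adjusted p = 0.154 and 0.147), with no filter (0.0661 and 0.0519) or with only the groups compared (0.203 and 0.195). Scaling each array by its median put the median change of all genes at -0.24 for WT against GFP (0.04 in the main scaling). It gave Itga9 a change of 0.33 there (limma adjusted p = 0.956). Against WT this scaling gave Itga9 -0.57 with D1709N and -0.62 with G1809R, neither called.

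The Itga9 promoter is shown because Itga9 is the member that passed the test, in 3 comparisons that share the WT arrays. It is RefSeq's GRCm38.p6 sequence at chr9:118711442-118711741 on the + strand, 250 bases before to 50 after the gene's start. Capitals mark matches, on either strand, to the GC box GGGCGG, the CCAAT box CCAAT, the TATA box TATAAA, the E-box CAGGTG or the AP-1 site TGANTCA, and no match overlapped another.
Itga9: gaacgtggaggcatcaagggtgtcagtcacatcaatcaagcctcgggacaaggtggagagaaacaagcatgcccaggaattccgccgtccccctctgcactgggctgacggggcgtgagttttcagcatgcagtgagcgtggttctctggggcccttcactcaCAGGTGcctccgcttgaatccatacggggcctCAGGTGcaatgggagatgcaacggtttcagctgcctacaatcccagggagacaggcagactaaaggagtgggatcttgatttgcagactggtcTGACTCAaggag
This window held 2 matches to the E-box and 1 to the AP-1 site. Among all 32851 promoters of the same length, 20.2% held the E-box and 7.81% the AP-1 site. A match to these letters is a description and shows no binding.

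The RGD-binding alpha chains Itga5 and Itgav showed no called change with or without the block, and Itga2b is described further on. Itga5, the fibronectin receptor's alpha chain, was at 0.33, -0.22 and 0.02 with D1709N, 0.34, -0.25 and 0.14 with G1809R, 0.57, -0.13 and 0.05 with WT, and 0.43, 0.53 and 0.52 with GFP. Every D1709N and G1809R array lay below every GFP array, with changes of -0.45 ± 0.22 and -0.42 ± 0.22 (limma adjusted p = 0.731 and 0.859), while WT, at -0.33 ± 0.22, overlapped GFP (adjusted p = 0.578). Non-overlapping arrays were found for 2 of the 29 members in D1709N against GFP (13.6% of all genes) and for 4 in G1809R against GFP (11.1% of all genes), all lower. Itgav, the alpha chain of the vitronectin receptors, differed from GFP by 0.04 with D1709N, -0.03 with G1809R and 0.02 with WT, with an SE of 0.14 each. Its other probe, which also passed the filter, gave -0.21, -0.22 and -0.36 in that order, so the probes disagreed.

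Among the alpha chains of laminin receptors, Itga6 was at 0.23 ± 0.25 with D1709N, 0.16 ± 0.25 with G1809R and 0.16 ± 0.25 with WT relative to GFP, none called. Itga3 changed by -0.06, 0.10 and -0.10 in the same order (SE 0.26 each), also uncalled. Itga7, a laminin receptor chain best known from muscle, had levels of 4.30, 4.42 and 4.37 with D1709N, 4.22, 4.24 and 4.15 with G1809R, 3.44, 3.79 and 4.33 with WT, and 4.18, 4.44 and 4.38 with GFP. WT replicates 1 and 2 were below all 9 other arrays and WT replicate 3 was among them, and the WT change of -0.48 ± 0.19 was not called (limma adjusted p = 0.256, 0.08 with the block).

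The collagen receptor chains Itga1, Itga2 and Itga11 had no called change. Itga1 reached -2.47 on D1709N replicate 3, against -4.92 and -3.81 on the other D1709N arrays, and its D1709N change against GFP was 1.04 ± 0.49 (limma adjusted p = 0.725). A further probe of Itga1, which did not pass the filter, gave -0.31 for that comparison, so the probes disagreed.

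Itga2b is the platelet chain alphaIIb, and it differed between the mutants and wild type with the block. Its level was -3.86, -3.56 and -4.23 with D1709N, -4.08, -3.70 and -3.79 with G1809R, -2.32, -2.56 and -3.37 with WT, and -3.94, -2.93 and -3.76 with GFP. Every array of each mutant was below every WT array, a pattern that 4 of the 29 members (all lower) showed for D1709N against WT (17.6% of all genes did not overlap) and 4 (all lower) for G1809R against WT (14.6%). The changes were -1.13 ± 0.33 for D1709N against WT (limma adjusted p = 0.135, 0.0205 with the block) and -1.11 ± 0.33 for G1809R against WT (0.158, 0.0237 with the block). Leaving out any 1 D1709N array ended the first blocked call (up to 0.0728), and leaving out G1809R replicate 1 or 2 or WT replicate 1 or 2 ended the second (up to 0.1). Of the other platelet genes, Pf4, Gp1ba and Ppbp were above background on 0 of 12 arrays and Gp9 on 1.

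Beta chains decide which alpha chains can reach the surface. With the block, 2 of the 6 tested were called higher with WT against GFP, as were 9.18% of all genes. Itgb5, which pairs with alphav, was at 0.94, 1.18 and 1.23 with D1709N, 0.91, 1.32 and 1.35 with G1809R, 1.35, 1.42 and 1.62 with WT, and 0.74, 0.98 and 0.75 with GFP. The WT arrays were all above the GFP arrays, and the lowest WT value equalled the highest of G1809R at 2 decimals. The WT change was 0.64 ± 0.15, short of the threshold without the block (limma adjusted p = 0.0581) and past it with the block (0.00433), where it held in all 12 fits without 1 array (highest adjusted p 0.0199). With quantile normalization the unblocked change was 0.70 and was called (limma adjusted p = 0.0308). Relative to GFP, D1709N stood at 0.29 ± 0.15 and G1809R at 0.37 ± 0.15 for this gene, neither called with or without the block (blocked adjusted p = 0.15 and 0.0878).

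The Itgb5 promoter is printed beside Itga9's because both genes were higher with WT. It lies at chr16:33829415-33829714 on the + strand (GRCm38.p6), and capitals mark the same motifs.
Itgb5: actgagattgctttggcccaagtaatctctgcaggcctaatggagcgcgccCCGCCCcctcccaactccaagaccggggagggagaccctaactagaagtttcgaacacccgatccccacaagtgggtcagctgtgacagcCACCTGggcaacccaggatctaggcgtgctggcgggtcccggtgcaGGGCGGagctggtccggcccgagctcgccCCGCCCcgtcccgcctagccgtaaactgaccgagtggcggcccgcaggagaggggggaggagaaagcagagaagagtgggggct
It held 3 matches to the GC box, which 35.7% of all promoters hold, and 1 to the E-box. RefSeq's table gave 26 promoters for 23 of the 36 genes, of which 13 held the GC box, 8 the E-box, 5 the CCAAT box (37.4% of all promoters), 3 the AP-1 site and 0 the TATA box (13.6% of all promoters).

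Itgb4 pairs with alpha6 in the hemidesmosomes that fix epithelia to laminin. Levels were 0.59, 0.05 and -0.00 with D1709N, 0.52, -0.27 and -0.28 with G1809R, 0.85, 0.13 and 0.19 with WT, and 0.44, -0.09 and -0.42 with GFP. Slide 1 arrays were the highest in each group and the groups overlapped, while WT was highest within each replicate number. The WT change against GFP was 0.41 ± 0.31 (limma adjusted p = 0.664, 0.0177 with the block), and that of G1809R against WT was -0.40 ± 0.31 (0.764, 0.0256 with the block). The first blocked call was lost without WT replicate 1 or 3 or GFP replicate 1 or 3 (up to 0.086), the second without any 1 G1809R array or WT replicate 1 or 3 (up to 0.102).

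Itgb1 is the shared partner of most alpha chains. It stood at 2.07, 2.15 and 2.78 with D1709N, 1.86, 2.08 and 2.40 with G1809R, 2.03, 2.23 and 2.87 with WT, and 2.26, 2.53 and 3.16 with GFP. Within each replicate number GFP was the highest of the 4 arrays, although the groups overlapped. With G1809R the change against GFP was -0.54 ± 0.30 (limma adjusted p = 0.907, 0.0229 with the block), and the blocked call was lost without any 1 G1809R or GFP array (up to 0.0946). Changes with D1709N, -0.32, and WT, -0.27, were not called (blocked adjusted p = 0.0888 and 0.0727). Its other probe gave -0.29, -0.56 and -0.25 for D1709N, G1809R and WT against GFP.

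Itgb3, the beta chain of the alphav and alphaIIb receptors, was at -1.07, -1.91 and -1.61 with D1709N, -0.75, -1.97 and -1.55 with G1809R, -1.40, -1.39 and -1.29 with WT, and -1.77, -1.93 and -1.58 with GFP. The WT arrays were above the GFP arrays, with a change of 0.40 ± 0.30 that was not called (limma adjusted p = 0.651, 0.258 with the block), and non-overlapping arrays were found for 19.9% of all genes and 7 of the 29 members (4 higher, 3 lower) in that comparison. A further probe of Itgb3 gave 0.25 for it, and for the mutants against GFP the 2 probes disagreed in sign (0.23 and -0.04 with D1709N, 0.34 and -0.24 with G1809R). Itgb8 was not well above background on 11 of 12 arrays and was not tested.

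The chains of leukocyte integrins include Itgal, Itgam and Itgax, their partner Itgb2, and Itgb7. Itgb7 was at -1.64, -3.21 and -4.19 with D1709N, -2.74, -3.17 and -3.84 with G1809R, -1.12, -2.15 and -2.20 with WT, and -2.39, -2.18 and -3.43 with GFP. The G1809R arrays were all below the WT arrays, and those of D1709N overlapped them. Its change was -1.19 ± 0.62 for D1709N against WT (limma adjusted p = 0.462, 0.047 with the block) and -1.43 ± 0.62 for G1809R against WT (0.386, 0.0275 with the block).

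The blocked Itgb7 call for D1709N held in 3 of the 12 fits without 1 array (up to 0.163), and those for G1809R in 7 of 12, being lost without any 1 G1809R array or WT replicate 1 or 3 (up to 0.11). None of Itgal, Itgam, Itgax and Itgb2 was called in any comparison with or without the block. Itgam's 3 probes gave 0.16, 0.08 and 0.37 for WT against GFP. They disagreed in sign for D1709N against GFP (0.20, -0.17 and -0.19) and G1809R against GFP (0.22, -0.07 and 0.15). The same held for D1709N against WT (0.04, -0.24 and -0.56) and G1809R against WT (0.06, -0.14 and -0.22). Of the leukocyte markers that are not integrins, the defining gene Ptprc was above background on 5 of 12 arrays, and Csf1r, Cd14 and Cd3e on 12 of 12. With the block 1 of 3 tested was called in either mutant against WT (all genes 15.5% for D1709N and 12.7% for G1809R). This was Csf1r, higher by 1.19 with D1709N (blocked adjusted p = 0.0079) and also with G1809R (0.0116). For WT against GFP the block called 1 of the 3 (all genes 17.8%), Cd14, higher by 0.51 (blocked adjusted p = 0.0338). The summed level of 4 such markers was 8.25 to 11.9 with D1709N, 7.53 to 11.5 with G1809R, 5.46 to 9.78 with WT and 6.28 to 9.38 with GFP, in multiples of the 75th percentile, and its part in the Itgb7 values was not tested.

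**Figure D3:**
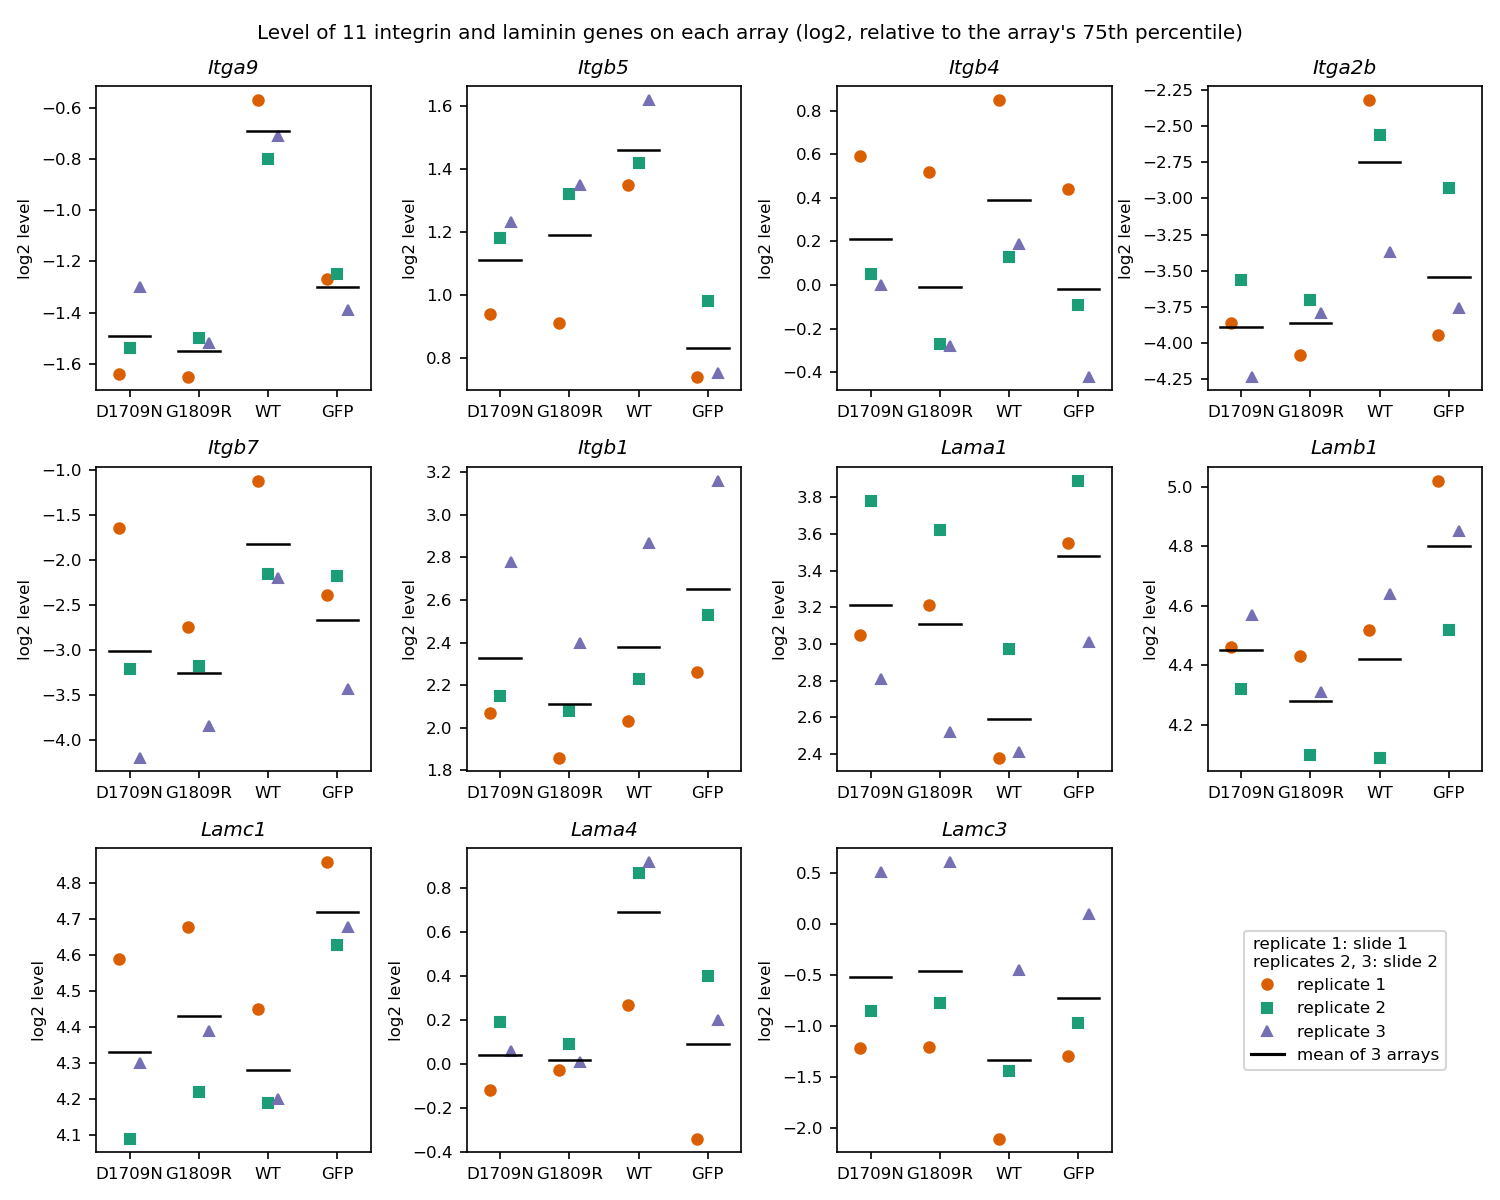
Log2 level, relative to the array's 75th percentile, of the 11 members called with or without the replicate block, on each of the 12 arrays. Groups run from D1709N to GFP, markers show the replicate number, bars are means of 3 arrays, and each panel has its own axis. Itga9 separates the WT arrays (-0.80 to -0.57) from the other 9 (-1.65 to -1.25).

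Of the laminins, the chains of the embryonic trimer (Lama1, Lamb1, Lamc1) were all lower with WT than with GFP when the replicate block was used. Lama1 levels were 3.05, 3.78 and 2.81 with D1709N, 3.21, 3.62 and 2.52 with G1809R, 2.38, 2.97 and 2.41 with WT, and 3.55, 3.89 and 3.01 with GFP. The WT arrays were below the GFP arrays, and each mutant overlapped both. Its WT change was -0.90 ± 0.35 (limma adjusted p = 0.245, 0.00349 with the block), and the blocked call held in all 12 fits without 1 array (highest adjusted p 0.0199).

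Relative to WT, Lama1 was at 0.63 ± 0.35 with D1709N (limma adjusted p = 0.511, 0.0191 with the block) and 0.53 ± 0.35 with G1809R (0.68, 0.0388 with the block). These blocked calls held in 8 and 4 of the 12 fits (adjusted p up to 0.086 and 0.148), and both were lost without WT replicate 1 or 2 or D1709N replicate 2 or 3. The G1809R call was also lost without G1809R replicate 1 or 2 or GFP replicate 2 or 3.

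Lamc1 is the gamma chain shared by most laminins, and its human form is a reported miR-29 target. Its level was 4.59, 4.09 and 4.30 with D1709N, 4.68, 4.22 and 4.39 with G1809R, 4.45, 4.19 and 4.20 with WT, and 4.86, 4.63 and 4.68 with GFP. The D1709N and WT arrays lay below all GFP arrays, and 1 G1809R array overlapped them. Changes against GFP were -0.39 ± 0.17 with D1709N (limma adjusted p = 0.65, 0.0348 with the block), -0.29 ± 0.17 with G1809R (0.907, 0.0823 with the block) and -0.45 ± 0.17 with WT (0.217, 0.00663 with the block).

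With the block the Lamc1 call for WT held in all 12 fits without 1 array (highest adjusted p 0.0362). That for D1709N held in 3, those without 1 WT array (up to 0.138 in the others). The mutants did not differ from WT by a called amount: 0.05 with D1709N and 0.15 with G1809R (SE 0.17 each). These comparisons share the GFP arrays, so like directions among them are not separate evidence.

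Lamb1, the beta chain of the same trimers, was at 4.46, 4.32 and 4.57 with D1709N, 4.43, 4.10 and 4.31 with G1809R, 4.52, 4.09 and 4.64 with WT, and 5.02, 4.52 and 4.85 with GFP. G1809R arrays were all below the GFP arrays, and GFP was the highest within each replicate number. The changes were -0.52 ± 0.18 with G1809R (limma adjusted p = 0.598, 0.031 with the block) and -0.38 ± 0.18 with WT (0.369, 0.0297 with the block), while -0.35 ± 0.18 with D1709N was not called (0.76, 0.0856 with the block). The blocked calls held in 5 and 7 of the 12 fits without 1 array (adjusted p up to 0.115 and 0.122). The first was lost without any 1 G1809R or GFP array or D1709N replicate 3, the second without WT replicate 1 or 2 or any 1 GFP array.

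The Lamb1 promoter is shown as that of a laminin on the lower side. It lies at chr12:31265043-31265342 on the + strand (GRCm38.p6), with the same motifs in capitals.
Lamb1: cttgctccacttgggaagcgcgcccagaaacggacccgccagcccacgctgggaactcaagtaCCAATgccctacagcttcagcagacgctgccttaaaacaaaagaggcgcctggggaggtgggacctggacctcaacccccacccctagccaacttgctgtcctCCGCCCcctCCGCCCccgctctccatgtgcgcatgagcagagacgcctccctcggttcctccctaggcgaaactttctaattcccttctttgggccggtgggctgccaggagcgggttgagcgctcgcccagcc
It held 2 matches to the GC box and 1 to the CCAAT box, and none to the E-box.

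Lamc3, a gamma chain of limited tissue range, gave the smallest blocked adjusted p for the mutants against WT of any laminin. Its level was -1.21, -0.85 and 0.51 with D1709N, -1.20, -0.77 and 0.61 with G1809R, -2.10, -1.44 and -0.45 with WT, and -1.29, -0.97 and 0.10 with GFP. Within each number the WT array was the lowest, and replicate 3 was the highest in every group, so the groups overlapped. The change was 0.81 ± 0.64 for D1709N against WT (limma adjusted p = 0.694, 0.0028 with the block), 0.87 ± 0.64 for G1809R against WT (0.728, 0.00215 with the block) and -0.61 ± 0.64 for WT against GFP (0.818, 0.00631 with the block). In the fit with the block the SE of each of these changes was 0.11. All 3 blocked calls held in all 12 fits without 1 array (highest adjusted p 0.0158, 0.0121 and 0.0321).

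Lama4, the alpha chain of laminins around vessels and smooth muscle, ran the other way. It was at -0.12, 0.19 and 0.06 with D1709N, -0.03, 0.09 and 0.01 with G1809R, 0.27, 0.87 and 0.92 with WT, and -0.34, 0.40 and 0.20 with GFP. Each mutant's arrays lay below all WT arrays. Its changes were -0.64 ± 0.22 for D1709N against WT (limma adjusted p = 0.206, 0.0151 with the block), -0.66 ± 0.22 for G1809R against WT (0.213, 0.014 with the block) and 0.60 ± 0.22 for WT against GFP (0.204, 0.016 with the block).

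The blocked Lama4 calls held in 9, 10 and 8 of the 12 fits (adjusted p up to 0.0643, 0.066 and 0.0711). They were lost without D1709N replicate 2 or 3 or WT replicate 2 in the first comparison, G1809R replicate 2 or 3 in the second, and WT replicate 2 or 3 or GFP replicate 1 or 3 in the third. Smooth muscle markers moved in the same direction: 4 of 5 were called lower with each mutant against WT with the block (15.5% of all genes were called for D1709N and 12.7% for G1809R), of which Cnn1 changed by -2.07 with D1709N and -2.14 with G1809R (blocked adjusted p = 4.07e-04 and 3.40e-04), and Tagln by -1.35 with D1709N and -1.38 with G1809R. Against GFP, Lama4 changed by -0.04 with D1709N and -0.07 with G1809R. The block called 2 of the 5 markers lower with each mutant there (all genes 4.25% and 3.74%), Cnn1 (-0.96 and -1.03) and Acta2 (-0.85 and -0.99). For WT against GFP it called 2 of the 5 higher (all genes 17.8%). The summed level of the 5 markers was 20.4 to 119 with D1709N, 23.2 to 89.6 with G1809R, 76 to 181 with WT and 34.1 to 140 with GFP, and its part in the Lama4 values was not tested. Of the 5 endothelial markers, Kdr and Pecam1 were above background on 12 of 12 arrays, Vwf on 11, Tek on 1 and Cdh5 on 0. With the block Kdr was called lower with both mutants against WT (-0.58 each, blocked adjusted p = 0.00889 with D1709N and 0.00932 with G1809R) and Vwf with D1709N (-0.92, 0.039), the direction of Lama4 in these comparisons. Kdr was also called lower with both mutants against GFP (-0.53 each, blocked adjusted p = 0.0325 with D1709N and 0.0346 with G1809R), unlike Lama4. Its mean was 4.26 with WT and 4.21 with GFP. The summed level of the 5 was 10.1 to 19.1 with D1709N, 10.3 to 19 with G1809R, 15.5 to 25.4 with WT and 14.7 to 26.2 with GFP, and its part in the Lama4 values was not tested either.

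The remaining laminins had no called change with or without the block. Lama5, the most widespread epithelial alpha chain, was at -0.14 with D1709N, 0.00 with G1809R and -0.30 with WT relative to GFP (SE 0.20 each). Lamb2 stayed within 0.05 of GFP in all 3. Lamb3 was at -0.89 ± 0.39 with G1809R (limma adjusted p = 0.743). The 2 probes of Lama3 disagreed for D1709N against GFP (0.15 and 1.17).

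**Figure D4:**
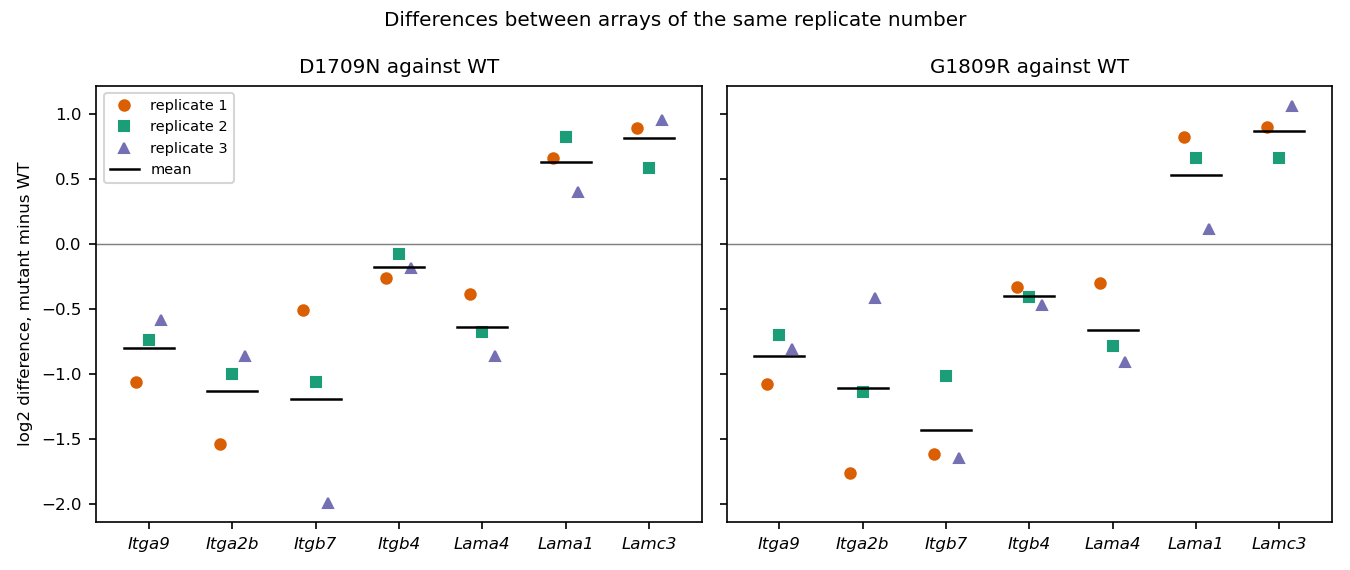
Difference in log2 level between each mutant array and the WT array of the same replicate number, D1709N left and G1809R right. Shown are the 7 members called in either mutant against WT with the replicate block, and bars are means of the 3 pairs. Without the block only Itga9 was called. Itgb4 was called with the block for G1809R but not for D1709N. Every Itga9 difference lies between -1.08 and -0.59, and every Lamc3 difference between 0.58 and 1.06.

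Proteins that work with integrins and laminins were counted from lists chosen with earlier results of these data known. Of 17 tested partners of laminin in the basement membrane, 2 (11.8%, all genes 2.95%) were called for WT against GFP: Col4a2, a chain of collagen IV, rose and Col4a5, another, fell. Col4a2 was at 0.53, 1.02 and 1.57 with WT and -0.58, -0.25 and 0.02 with GFP, a change of 1.31 ± 0.30 (limma adjusted p = 0.0496). Col4a5 was at 2.88, 2.78 and 2.85 with WT and 3.55, 3.22 and 3.40 with GFP, a change of -0.55 ± 0.11 (limma adjusted p = 0.0363). With the block 8 of the 17 were called (2 higher, 6 lower, 47.1% against 17.8% of all genes), among them Col4a1, higher by 1.29. The block also called 6 for D1709N against WT (4 higher, 2 lower, 35.3% against 15.5% of all genes) and 7 for G1809R against WT (5 higher, 2 lower, 41.2% against 12.7%). Relative to WT, Col4a2 was at -1.31 with D1709N and -1.22 with G1809R (blocked adjusted p = 0.00113 and 0.0015), Col4a1 at -1.51 and -1.32 (0.00134 and 0.00222) and Col4a5 at 0.46 and 0.54 (0.00981 and 0.00555), in that order of mutants. Against GFP the block called 1 of the 17 with D1709N (5.88%, all genes 4.25%) and 0 with G1809R (all genes 3.74%).

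Among 27 tested integrin adaptors and signalling proteins, 2 (7.41%, all genes 2.95%) were called for WT against GFP, and 7 with the block (25.9%, all genes 17.8%). Ptk2b, the focal adhesion kinase homologue Pyk2, rose by 0.74 ± 0.16 (limma adjusted p = 0.0399), and Tns3, the actin linker tensin 3, fell by 0.69 (SE 0.16, limma adjusted p = 0.0481). With the block 4 of the 27 were called in each mutant against WT (14.8%, 1 higher and 3 lower). The share of all genes there was 15.5% for D1709N and 12.7% for G1809R. Against GFP the block called 0 with D1709N (all genes 4.25%) and 1 with G1809R (3.7%, all genes 3.74%). Those called against WT include Ptk2b (-0.48 with D1709N, -0.46 with G1809R, blocked adjusted p = 0.0186 and 0.0233) and Tns3 (0.44 and 0.46, blocked adjusted p = 0.0116 and 0.0105).

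Of 18 tested integrin ligands 1 was called for WT against GFP (5.56%, all genes 2.95%), Vcam1, a ligand of alpha9 and alpha4 integrins. It was at 0.44, 0.46 and 0.95 with WT and 1.43, 1.98 and 2.13 with GFP (change -1.23 ± 0.27, limma adjusted p = 0.0424). Tenascin-C, Tnc, another alpha9 ligand, changed by -1.45 with D1709N, -1.25 with G1809R and -1.75 with WT against GFP, called only with the block (adjusted p = 0.00571, 0.0108 and 4.69e-04). With the block Vcam1 was also called lower than GFP with D1709N (-1.09, adjusted p = 0.00963) and G1809R (-1.03, adjusted p = 0.0147). The block called 5 of the 18 ligands for D1709N against GFP and 4 for G1809R against GFP, all lower (27.8% and 22.2%, all genes 4.25% and 3.74%). It called 4 for WT against GFP (1 higher, 3 lower, 22.2% against 17.8% of all genes) and 4 for D1709N against WT (1 higher, 3 lower, 22.2% against 15.5%). For G1809R against WT it called 5 (1 higher, 4 lower, 27.8% against 12.7%). These comparisons share arrays of WT or GFP.

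None of 15 tested tetraspanins and other laminin receptors was called in WT against GFP without the block (all genes 2.95%) or with it (all genes 17.8%). Of these genes, 1 had an unadjusted p under 0.05 there. The block called 1 of them for D1709N against WT (6.67%, all genes 15.5%). In the fit without the block no gene of these 4 lists was called for either mutant against GFP or against WT.

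Markers of the labelled origin were mixed. Of 6 epithelial markers, the keratins Krt7, Krt8, Krt18 and Krt19 were above background on all 12 arrays, Epcam on 11 and Cdh1 on 10. Group means were -4.21 to -3.55 for Epcam and -4.98 to -4.70 for Cdh1. Epithelial markers called with the block were all higher: 2 for D1709N against GFP (33.3%, all genes 4.25%) and 3 for D1709N against WT (50%, all genes 15.5%). The block called 1 each for G1809R against GFP, G1809R against WT and WT against GFP (16.7%, all genes 3.74%, 12.7% and 17.8%). Krt19 was among those called against GFP with each construct (0.59 with D1709N, 0.54 with G1809R, 0.50 with WT). Of 4 oviduct markers, Wt1 and Ovgp1 were above background on all 12 arrays, and Pax8 and Foxj1 on 4 each. Of the 2 tested, the block called Wt1 higher against WT with D1709N (0.55, all genes 15.5%) and G1809R (0.46, all genes 12.7%). The mesenchymal marker Vim was above background on all 12. Of 6 mesenchymal markers Pdgfra fell with WT against GFP by 0.91 (limma adjusted p = 0.0074) and Pdgfrb fell with D1709N against WT by 1.11 (limma adjusted p = 0.0342). With the block 5 of the 6 were called in each mutant against WT (83.3%, all genes 15.5% for D1709N and 12.7% for G1809R). Of these, 3 were higher (S100a4, Vim and Pdgfra, by 1.09, 0.65 and 0.33 with D1709N) and 2 lower (Pdgfrb and Thy1). The block called 4 for WT against GFP (66.7%, all genes 17.8%), of which Pdgfrb (0.74) and Thy1 (0.69) were higher and Vim (-0.77) and Pdgfra lower. Against GFP it called S100a4 higher and Pdgfra lower with each mutant (33.3%, all genes 4.25% for D1709N and 3.74% for G1809R). The genes below the filter were Itga4, Itga8, Itgad, Itgb6, Itgb8, Itgbl1 and Lama2, which were well above background on 0 to 5 of 12 arrays, and no change is given for them.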

How the data were processed

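The submitters' processing notes name Agilent Feature Extraction (version 11.0.1.1) for the 12 scanner files. Per the file headers, these hold a background-subtracted processed intensity per spot, unscaled between arrays. A table of log2 signals deposited by the authors, whose scaling no source states, served as an alternative (31238 of its probes matched).

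Each log2 intensity had the array's own 75th percentile over 59305 non-control spots subtracted. Probes with all spots flagged on an array (287 of 55681) were left out, and the brightest remaining probe stood for a gene. RefSeq accessions gave the symbols. The members' 48 probes include several for 11 genes. The filter on dim probes, and the number of arrays, limit precision.

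Tests used limma 3.58.1 in R 4.3.3 with the data.table package (version 1.17.8) on all 12 arrays with group as the only factor, over 6 comparisons, two-sided, adjusted by Benjamini and Hochberg over 24183 genes. The code was also run on simulated data with independent noise on each array. That simulation had no deviation shared by arrays of the same number, so it cannot give the error rate of either fit on these arrays. The labels' replicate numbers pair the arrays: the deviations of same-numbered arrays from their group means correlated at 0.60 to 0.85 in 18 pairs, against -0.67 to 0.20 in 36 pairs of different numbers. The blocked fit therefore stands beside results it changed. Slide 1 holds replicate 1 only, so the slide is part of that block. Between-slide differences in a member's change were tested by an interaction term, which called 0 of 29 members in all 6 comparisons (lowest adjusted p 0.678, and at most 3 with an unadjusted p under 0.05). This term called 0 of all genes too. With 1 array a group on slide 1, it cannot show that changes were alike on both slides.

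Members follow a rule on symbols alone, but that rule and the lists were chosen with earlier results of these data known. Named genes were the members called in any comparison, members called only with the block, reported miRNA targets and shared chains, and up to 3 called genes of each partner list. A few others (Itga1, Itga3, Itga7, Lama5, Lamb2, Lamb3, Tnc, Col4a1, Lama3 and markers) were chosen after their values were seen. Alternatives were another block, slide 2 only, other scalings, background corrections (normexp on median signals, as mean signals were not used here), filters and probe rules, the compared groups alone, and leaving out each array. Blocked fits without 1 array were added after seeing the data. The values of 1 tested member, called neither with nor without the block, are not reported here.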

Additional observations from a re-analysis of the deposited data

How the results depend on the processing

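The replicate block, which pairs arrays by number, raised the count of called genes to 1028 for D1709N against GFP, 904 for G1809R against GFP, 4300 for WT against GFP, 3760 for D1709N against WT and 3065 for G1809R against WT, and the members called to 1, 2, 8, 6 and 7 in that order. Without it the counts of all genes were 12, 3, 713, 402 and 397, and those of members 0, 0, 1, 1 and 1. The slide as a block gave 97, 63, 2112, 1407 and 1206 genes, with 5 members for WT against GFP and 2 for each mutant against WT. Slide 2 alone gave 1, 1, 3, 3 and 11 genes, no filter on dim probes 2, 1, 206, 55 and 68, median scaling 3, 1, 25, 3 and 6, and fits of only the groups compared 0, 1, 3, 0 and 0, and each of these 4 settings called 0 members in every comparison. Using only probes above background on all arrays gave 2 members for WT against GFP. The mean of a gene's probes gave 3 genes for D1709N against GFP and 1 for G1809R against GFP, and normexp with quantile normalization gave 5 for G1809R against GFP. For D1709N against G1809R every setting gave 0 members.

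Leaving out 1 array at a time gave 2 to 8 genes and 0 members for D1709N against GFP, 1 to 2 genes and 0 members for G1809R against GFP, 146 to 601 genes and 0 to 2 members for WT against GFP, 41 to 307 genes and 0 to 2 members for D1709N against WT, and 70 to 314 genes and 1 member for G1809R against WT. With the block as well, the members called ranged from 0 to 1, 0 to 2, 5 to 9, 2 to 6 and 2 to 7 in the same order. No called member changed sign under any setting. Median scaling put the median change of all genes at -0.24 for WT against GFP, 0.22 for D1709N against WT and 0.25 for G1809R against WT. In the main scaling these were 0.04, -0.01 and 0.01. The cause of the fewer calls with median scaling was not tested. Members near background (Itga11, Itga2, Itgax) are limited by signal.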
